A study of Homo sapiens with 6 samples.

Results

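PCA3, PCGEM1, PCAT1, DRAIC, MALAT1 and NEAT1 are 6 long noncoding RNAs (lncRNAs) studied in prostate cancer, taken here by name as 6 of the 60658 genes in the deposited tables. Of these 60658 genes, 15379 are lncRNA genes in the GENCODE 29 annotation. The RNA came from C4-2B MDVR and CWR22Rv1, 2 human lines of castration-resistant prostate cancer, after 48 h with DMSO (the vehicle), 10 µM APO or 10 µM VER. APO (apoptozole) and VER (VER155008) are inhibitors of HSP70, a chaperone that helps proteins fold. C4-2B MDVR is a derivative of C4-2B with acquired resistance to enzalutamide, an androgen receptor antagonist, and was maintained in medium with 20 µM enzalutamide. Whether enzalutamide was also present during the 48 h, in the DMSO control or the treated cells, is not stated in the paper's methods. CWR22Rv1 was maintained without enzalutamide. Each of the 6 conditions had 1 library, so no difference below has a replicate check, no p-value is given, and neighbours in an order of levels cannot be judged against any spread. The labels of the C4-2B MDVR libraries also carry the words LNCaP-C4-2B and parental, and the titles were followed.

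Long noncoding RNAs are transcribed and processed like messenger RNAs but do not encode a protein. PCA3, which lies antisense to PRUNE2, is used as a urine marker of prostate cancer, and PCGEM1 is known for its restriction to prostate tissue. PCAT1 lies in the gene desert before MYC. DRAIC takes its name from its lower level in androgen-independent cells. NEAT1 is the scaffold of paraspeckles, and MALAT1 is retained in nuclear speckles, which store splicing factors.

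The annotation placed all 6 genes on the plus strand of GRCh38. PCA3 (ENSG00000225937) spans chr9:76691980-76863307 with 17 transcripts, and PCGEM1 (ENSG00000227418) spans chr2:192749845-192776899 with 2 transcripts. PCAT1 (ENSG00000253438), with 32 transcripts, covers 862728 bases. DRAIC (ENSG00000245750) spans chr15:69463026-69843120 with 20 transcripts. NEAT1 (ENSG00000245532) at chr11:65422774-65445540 and MALAT1 (ENSG00000251562) at chr11:65497688-65506516 are neighbours on the same chromosome.

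How these genes end bears on what the libraries could hold, because the labels describe selection of polyadenylated RNA on oligo(dT) beads. NEAT1 is made in a short form that is polyadenylated and a long form whose end is cut and held in a triple helix without a poly(A) tail, and the main MALAT1 transcript ends like the long form. The last 60 bases of 4 annotated transcripts (GENCODE 29) are shown, with the polyadenylation signal AATAAA in capitals.
NEAT1-208: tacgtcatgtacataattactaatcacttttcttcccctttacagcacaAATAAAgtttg
NEAT1-202: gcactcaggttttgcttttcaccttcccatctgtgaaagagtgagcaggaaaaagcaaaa
MALAT1-202: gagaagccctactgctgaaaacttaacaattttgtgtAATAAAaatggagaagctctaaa
MALAT1-209: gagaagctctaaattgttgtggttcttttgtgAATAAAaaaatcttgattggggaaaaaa
NEAT1-208 is 2994 bases long and has the signal 5 bases before its end (chr11:65426454-65426513). NEAT1-202, of 22743 bases, holds no AATAAA in this window (chr11:65445481-65445540). MALAT1-202, of 8708 bases, has it 17 bases before its end (chr11:65506410-65506469), and MALAT1-209, of 587 bases, 22 bases before (chr11:65506457-65506516). The ends shown are those of the annotation, and which end the MALAT1 RNA of these libraries had is not known. The deposited values are 1 per gene, so the forms of NEAT1 or MALAT1 could not be told apart, and RNA without a poly(A) tail may be captured only in part.

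The promoters of DRAIC, which was lower with both inhibitors, and of MALAT1, which differed in direction between the lines, are shown from RefSeq (GRCh38.p14) as 250 bases before and, in capitals, 50 bases from the start site.
DRAIC: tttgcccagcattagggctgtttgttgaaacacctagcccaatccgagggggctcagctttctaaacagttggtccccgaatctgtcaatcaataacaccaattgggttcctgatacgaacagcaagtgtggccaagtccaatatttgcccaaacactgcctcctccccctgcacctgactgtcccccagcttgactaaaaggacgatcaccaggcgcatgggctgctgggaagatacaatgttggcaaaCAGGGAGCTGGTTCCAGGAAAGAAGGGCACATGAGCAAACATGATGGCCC
MALAT1: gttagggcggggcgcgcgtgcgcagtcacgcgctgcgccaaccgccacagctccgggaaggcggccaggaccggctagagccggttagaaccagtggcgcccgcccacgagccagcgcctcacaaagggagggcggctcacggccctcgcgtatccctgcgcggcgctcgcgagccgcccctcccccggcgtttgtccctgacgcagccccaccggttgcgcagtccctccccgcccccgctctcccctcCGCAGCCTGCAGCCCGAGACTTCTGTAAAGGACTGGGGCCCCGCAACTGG
The DRAIC window is chr15:69561470-69561769, which lies inside the span that GENCODE gives the gene, and the MALAT1 window is chr11:65497488-65497787. The promoter table held 6 windows of 4 of the 6 genes, and NEAT1 and PCAT1 were not matched. Motifs were searched on both strands. The androgen response element, searched as AGAACA and TGTTCT with 3 free bases between them, was in 0 of the 6 windows and in 0.00285% of all 35116 promoters. Its left arm AGAACA, which 14.8% of promoters hold, was in the windows of PCGEM1 and of the second MALAT1 start site. The heat shock element core GAANNTTC (6.77% of promoters), the ATF4 motif TGATGNAAT (0.991%) and the E-box CACGTG (7.26%) were in 0 of the 6. The TATA box TATAAA (11.5%) was in the window of the second MALAT1 start site. These matches are descriptions of letters in the windows and not of bound sites.

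Levels are given as FPKM, a fragment number corrected for transcript length and library size, as the authors deposited them. The deposited FPKM of a library summed to between 647172 and 747932. Read totals are not in the tables. Read from the steps between low values, the other libraries were about 1.14 to 1.63 times as deep as that of C4-2B MDVR with DMSO. These depths are rough, since the most common ratio between libraries held 3.17% to 9.58% of the low values. Mitochondrial genes held 14.8% to 16.4% of the FPKM in C4-2B MDVR and 25.7% in CWR22Rv1 with DMSO or VER, but 10.4% in CWR22Rv1 with APO. All lncRNA genes together held 1.38% to 1.97% of the FPKM, with the highest share in the CWR22Rv1 APO library. All 9 luminal prostate markers were above 1 FPKM in every library. Of the basal markers, KRT5 and TP63 were listed at 0 in all 6, and the endothelial marker PECAM1 likewise. The summed level of 4 leukocyte markers was at most 3.78 FPKM, and that of 5 stromal markers at most 11.1 FPKM. The 5 neuroendocrine markers summed to 0.310 to 1.03 FPKM in C4-2B MDVR and 38.8 to 61.9 FPKM in CWR22Rv1.

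The 6 lncRNAs lay on very different levels. MALAT1 (316 to 954 FPKM) and NEAT1 (102 to 276 FPKM) were among the most abundant lncRNAs, DRAIC was at 2.20 to 7.15 FPKM, PCAT1 at 0.181 to 1.03 FPKM and PCA3 at 0 to 0.640 FPKM. PCGEM1 was listed at 0 in all 6 libraries. In every library MALAT1 was above NEAT1, NEAT1 above DRAIC and DRAIC above PCAT1 per length of transcript.

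**Figure D1:**
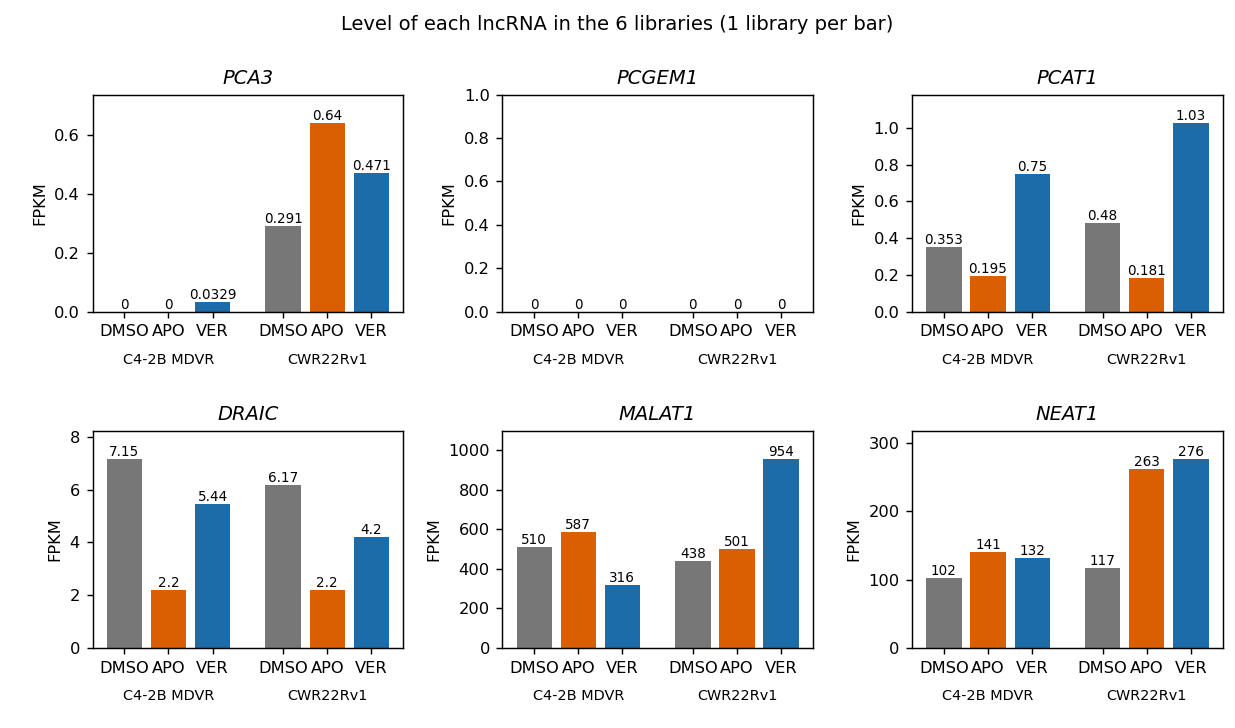
FPKM of each lncRNA (vertical axis, from 0, with its own range in each panel) in the 6 libraries, 1 bar per library, for C4-2B MDVR on the left and CWR22Rv1 on the right of each panel. DRAIC is highest under DMSO in both lines, PCAT1 is lowest with APO and highest with VER in both lines, and PCGEM1 is listed at 0 throughout.

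Changes are differences of log2(FPKM + 0.1), treated minus DMSO within a line, for genes that exceeded 0.1 FPKM in any of that line's 3 libraries. Calls were made past 1.2-fold, the threshold the study used. The pseudocount of 0.1 understates the change of low genes such as PCAT1 and PCA3. The APO and VER comparisons of a line share its DMSO library. In C4-2B MDVR, 4 of the 6 lncRNAs passed the filter. With APO 1 was called up and 2 down, where 73.1% of all 20122 genes compared (37.7% up and 35.4% down) and 80% of lncRNA genes were called. With VER 2 were up and 2 down, beside 70.5% of all genes (35.6% up and 34.9% down) and 76.6% of lncRNA genes. In CWR22Rv1, 5 of the 6 passed. With APO 2 were up and 2 down, beside 74.8% of all 21608 genes (35.6% up and 39.2% down) and 79.3% of lncRNA genes. With VER 4 were up and 1 down, beside 64.4% of all genes (32.1% up and 32.3% down) and 73.7% of lncRNA genes. With VER every lncRNA that passed was called in both lines, but 4 or 5 genes are too few to set against these shares. The number called thus says nothing particular about the 6 lncRNAs. At 2-fold in C4-2B MDVR, 1 lncRNA was called with APO and 0 with VER, against 28.7% and 27.8% of all genes. In CWR22Rv1, 3 were called at 2-fold with APO and 2 with VER, against 30.6% and 19.8% of all genes.

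**Figure D2:**
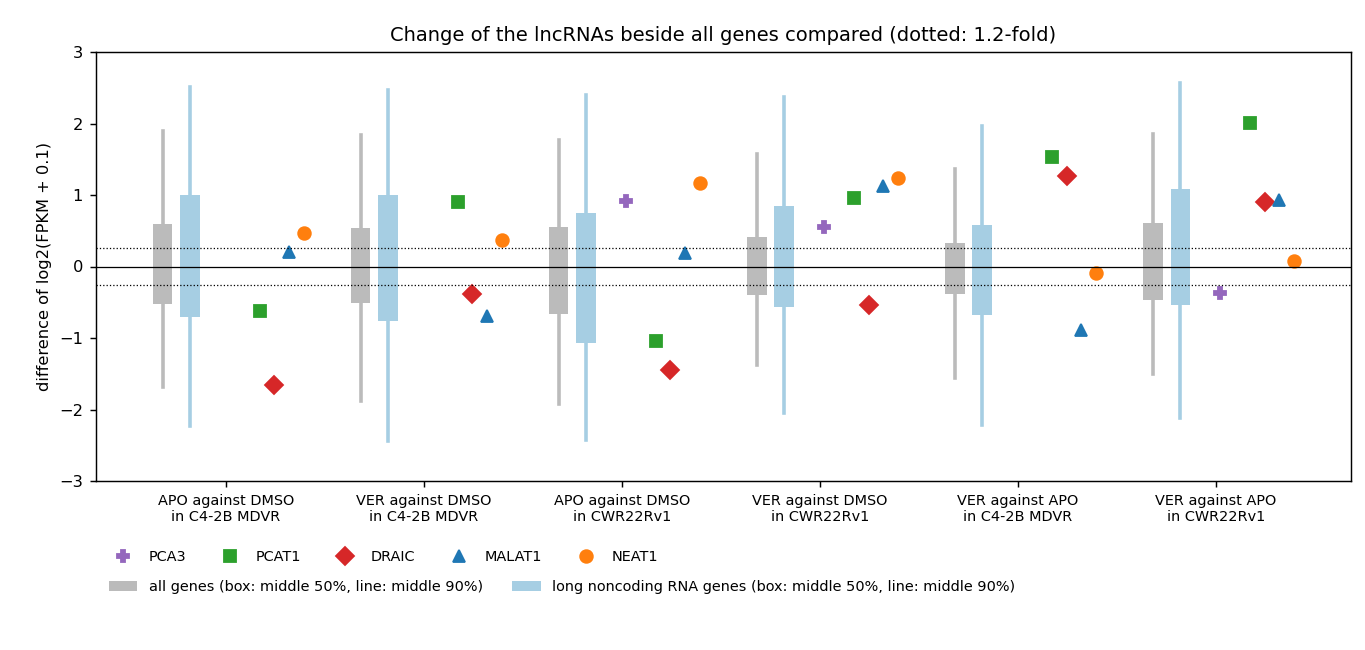
Difference of log2(FPKM + 0.1) (vertical axis) of 5 lncRNAs in 6 comparisons, 1 symbol per gene, beside all genes and all lncRNA genes compared (box, middle 50%; line, middle 90%), with dotted lines at 1.2-fold. All symbols lie inside the middle 90% of lncRNA genes; DRAIC is below 0 in the 4 comparisons with DMSO and NEAT1 above 0 in them.

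In C4-2B MDVR, NEAT1 was at 102 FPKM under DMSO, 141 under APO and 132 under VER. The CWR22Rv1 levels were 117 FPKM with DMSO, 263 with APO and 276 with VER. All 4 treated libraries were above the DMSO library of their line, and the treated CWR22Rv1 libraries held the highest levels. The change in C4-2B MDVR was 0.46 with APO (1.38-fold) and 0.37 with VER (1.295-fold). The CWR22Rv1 changes were 1.16 with APO (2.24-fold) and 1.24 with VER (2.36-fold). Among all genes compared, 29.6% and 31.0% changed more upward in C4-2B MDVR with APO and VER, and 11% and 7.90% in CWR22Rv1. NEAT1 was 11th among lncRNAs by FPKM in C4-2B MDVR with DMSO and 6th in CWR22Rv1 with VER. The mitochondrial share was lower in the CWR22Rv1 APO library, and with mitochondrial genes left out of the scaling the NEAT1 change there was 1.01. It was then 0.30 in C4-2B MDVR with APO, still past 1.2-fold.

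For MALAT1 the C4-2B MDVR levels were 509.6 FPKM under DMSO, 587 under APO and 316 under VER. Those of CWR22Rv1 were 438 FPKM with DMSO, 501 with APO and 954 with VER. VER thus stood with the lowest MALAT1 level in C4-2B MDVR and the highest in CWR22Rv1. The change with VER was -0.69 in C4-2B MDVR (1.61-fold lower) and 1.12 in CWR22Rv1 (2.18-fold higher), and the difference between the lines has no replicates and was not tested. With APO it was 0.21 and 0.19, within 1.2-fold in both lines. MALAT1 ranked between 2nd and 4th among lncRNAs in all 6 libraries. LRRC75A-AS1, another lncRNA named after its values were seen, was 1st in every library except CWR22Rv1 with APO, where it was 2nd after GAS5.

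The FPKM ratio of MALAT1 to NEAT1 was lower with both inhibitors than with DMSO in both lines. In C4-2B MDVR it went from 4.99 under DMSO to 4.17 under APO and 2.39 under VER. For CWR22Rv1 the ratio was 3.74 under DMSO, 1.91 under APO and 3.45 under VER. The gaps to DMSO were small in C4-2B MDVR with APO and in CWR22Rv1 with VER. Each ratio rests on 1 library. The ratio does not depend on how a library is scaled. The lowest ratio was thus in the VER library of C4-2B MDVR but in the APO library of CWR22Rv1. Together the pair held between 4.11% (C4-2B MDVR with VER) and 9.66% (CWR22Rv1 with VER) of the summed FPKM of all lncRNA genes.

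**Figure D3:**
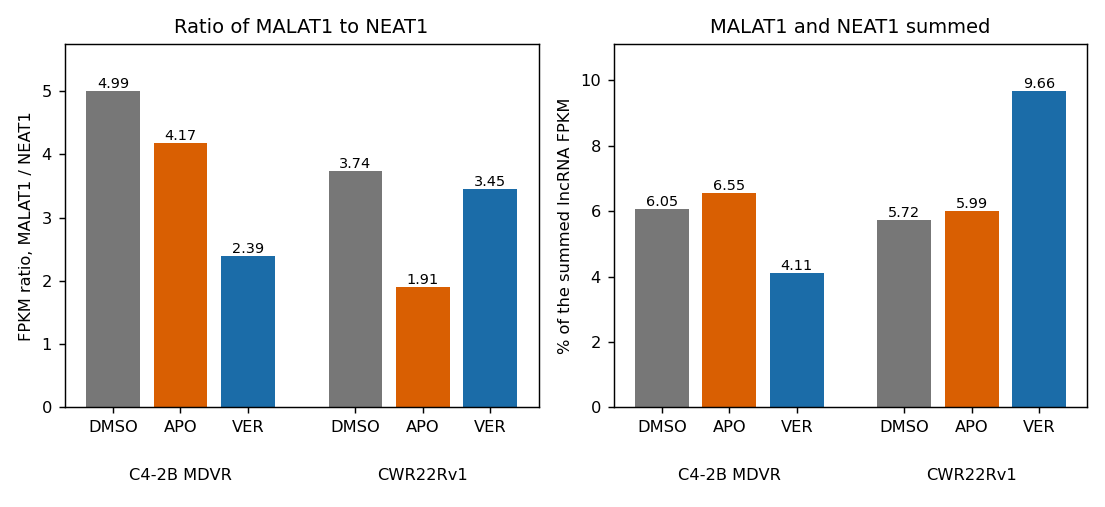
Left, FPKM of MALAT1 divided by FPKM of NEAT1; right, both summed as a percentage of the FPKM of all lncRNA genes, 1 bar per library, axes from 0. The ratio is highest with DMSO in both lines (4.99 and 3.74), though little above that of C4-2B MDVR with APO (4.17) and CWR22Rv1 with VER (3.45). The summed share is highest in CWR22Rv1 with VER (9.66%).

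The nearest protein-coding gene before the pair did not show the NEAT1 pattern. FRMD8, which ends 9249 bases before NEAT1, was at 24.5, 14.5 and 21.6 FPKM in C4-2B MDVR with DMSO, APO and VER, and at 12.8, 12.0 and 9.29 FPKM in CWR22Rv1. It was thus highest with DMSO in both lines.

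Genes of the proteins found in the 2 nuclear bodies were called down more often than up with the inhibitors on the deposited scale. Of 19 paraspeckle protein genes, all measured, 15 were called down and 1 up in C4-2B MDVR with APO, and 16 down and 1 up with VER. In CWR22Rv1, 7 were down and 2 up with APO, and 16 down and 0 up with VER. In CWR22Rv1 with APO the balance turned with the scaling, to 3 down and 4 up with each library scaled to the same sum (median -0.03) and to 13 down and 1 up without mitochondrial genes (median -0.30). Of all genes compared, 35.4% and 34.9% were down in C4-2B MDVR with APO and VER, and 39.2% and 32.3% in CWR22Rv1. The median change of the paraspeckle list was -0.51, -0.49, -0.14 and -0.48 in that order, where the median of all genes was within 0.02 of 0. SFPQ, an RNA-binding protein required for paraspeckles, changed by -1.06 and -1.10 in C4-2B MDVR and by -1.26 and -0.60 in CWR22Rv1 with APO and VER. RBM14, another paraspeckle protein, changed by -1.03 and -0.92 in C4-2B MDVR and -1.08 and -0.82 in CWR22Rv1. CIRBP, a cold-inducible RNA-binding protein, was higher by 0.52, 0.34 and 0.49 in the first 3 of these comparisons and by 0.15, within 1.2-fold, in CWR22Rv1 with VER.

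Of 20 nuclear speckle protein genes, 16 were called down and 1 up in C4-2B MDVR with APO, and 19 down and 0 up with VER. In CWR22Rv1, 13 were down and 2 up with APO, and 10 down and 1 up with VER. The list includes METTL16, taken for its binding to the MALAT1 triple helix, and METTL16 was called up in CWR22Rv1 with APO (0.77). Beside these counts, 35.4%, 34.9%, 39.2% and 32.3% of all genes were down in the 4 comparisons. The medians were -0.49, -0.75, -0.37 and -0.25, again beside all-gene medians within 0.02 of 0. SON, a large protein at the core of speckles, changed by -0.55 and -0.53 in C4-2B MDVR and -0.74 and -0.63 in CWR22Rv1. U2AF2, which recognises the 3′ splice site, changed by -0.82 and -0.85 in C4-2B MDVR and -0.53 and -0.64 in CWR22Rv1. Most speckle protein genes called were thus lower both where MALAT1 was lower and where it was higher.

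DRAIC was lower with each inhibitor in each line, and more so with APO. In C4-2B MDVR its level was 7.15 FPKM under DMSO, 2.20 under APO and 5.44 under VER. The CWR22Rv1 level was 6.17 FPKM with DMSO, 2.20 with APO and 4.20 with VER. Every treated library was below both DMSO libraries. The change with APO was -1.66 in C4-2B MDVR (3.25-fold lower) and -1.45 in CWR22Rv1 (2.80-fold lower). With VER it was -0.39 (1.31-fold lower) and -0.54 (1.47-fold lower). Among all genes compared, 5.20% and 9.41% changed more downward with APO in C4-2B MDVR and CWR22Rv1, and 29.7% and 18.9% with VER. The DRAIC changes with APO lie in the lower part of all genes, and those with VER are nearer the middle.

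TLE3, a transcriptional corepressor and the nearest gene after DRAIC at 204670 bases, had 46.8, 27.6 and 35.3 FPKM with DMSO, APO and VER in C4-2B MDVR and 57.6, 19.4 and 23.9 FPKM in CWR22Rv1. Like DRAIC it was lowest with APO in both lines. RPLP1, a ribosomal protein gene and the nearest protein-coding gene before DRAIC at 6832 bases, was lowest with DMSO in both lines, at 849.5 and 706 FPKM, and highest with APO, at 1279.7 and 1151 FPKM. Its distance is taken from the start of the GENCODE span, and the DRAIC promoter window shown above lies farther away, inside that span. The neighbour after DRAIC thus had the order of DRAIC and the neighbour before it the reverse.

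Genes that androgen induces were called down more often than up. Of 15 such genes, 14 were called down and 0 up in C4-2B MDVR with APO, and 14 down and 1 up with VER. In CWR22Rv1, where 14 passed the filter, 13 were down and 0 up with APO, and 8 down and 3 up with VER. The shares of all genes down were 35.4%, 34.9%, 39.2% and 32.3%. The list's medians were -1.96, -1.56, -1.20 and -0.33. KLK2, a kallikrein of the prostate, changed by -3.84 and -2.30 in C4-2B MDVR and -3.38 and -0.68 in CWR22Rv1. ZBTB16, a zinc finger repressor, changed by -1.02 and -1.56 in C4-2B MDVR and -1.33 and -0.83 in CWR22Rv1. The study itself followed genes of this kind in these libraries, so their direction is not independent evidence.

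PCAT1 differed in direction between the inhibitors, and in the same way in both lines. In C4-2B MDVR it stood at 0.353 FPKM with DMSO, 0.195 with APO and 0.750 with VER. For CWR22Rv1 the values were 0.480 FPKM with DMSO, 0.181 with APO and 1.03 with VER. Both APO libraries were below, and both VER libraries above, the DMSO libraries. The change was -0.62 (1.81-fold lower by FPKM) and 0.91 (2.12-fold higher) in C4-2B MDVR with APO and VER. The CWR22Rv1 changes were -1.04 (2.65-fold lower) and 0.96 (2.14-fold higher). These are levels near the pseudocount, and with a pseudocount of 1 the change was -0.18 in C4-2B MDVR with APO, within 1.2-fold, and -0.33 in CWR22Rv1. Of genes with a mean of 0.1 to 1 FPKM, 82.2%, 80%, 80.2% and 76.4% were called in the 4 comparisons.

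The span of PCAT1, chr8:126556323-127419050, overlaps other genes, and whether reads were assigned by strand is not given in the sources used here, so reads of overlapping genes could not be told apart. CASC8, a lncRNA on the opposite strand inside the span, was at 0.133, 0 and 0.298 FPKM in C4-2B MDVR with DMSO, APO and VER, and at 0.200, 0.157 and 0.511 FPKM in CWR22Rv1. CASC11, 267293 bases after PCAT1, was at 0.703, 0.217 and 0.863 FPKM in C4-2B MDVR and 0.300, 0.147 and 0.444 FPKM in CWR22Rv1. Both were lowest with APO and highest with VER in both lines, in the order seen for PCAT1. FAM84B, a protein-coding gene that overlaps on the opposite strand, had another order, with 27.1, 46.3 and 42.0 FPKM in C4-2B MDVR and 12.6, 29.4 and 17.2 FPKM in CWR22Rv1. Other overlapping genes of low level, which passed the filter only in CWR22Rv1, were highest there with APO or with DMSO. The order of PCAT1 was thus not shared by all genes of the span.

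MYC, the growth-promoting transcription factor 316384 bases after PCAT1, was at 120.5, 22.6 and 82.3 FPKM in C4-2B MDVR with DMSO, APO and VER, and CWR22Rv1 had 118, 44.8 and 83.0 FPKM. It was thus lowest with APO, as PCAT1 was, but below DMSO with VER (changes of -0.55 and -0.50), where PCAT1 was above. PVT1, the lncRNA that follows MYC and was named after its values were seen, was at 142, 31.97 and 464 FPKM in C4-2B MDVR, the PCAT1 order, and at 18.6, 13.3 and 18.4 FPKM in CWR22Rv1. With VER it changed by 1.71 in C4-2B MDVR and by -0.02 in CWR22Rv1.

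**Figure D4:**
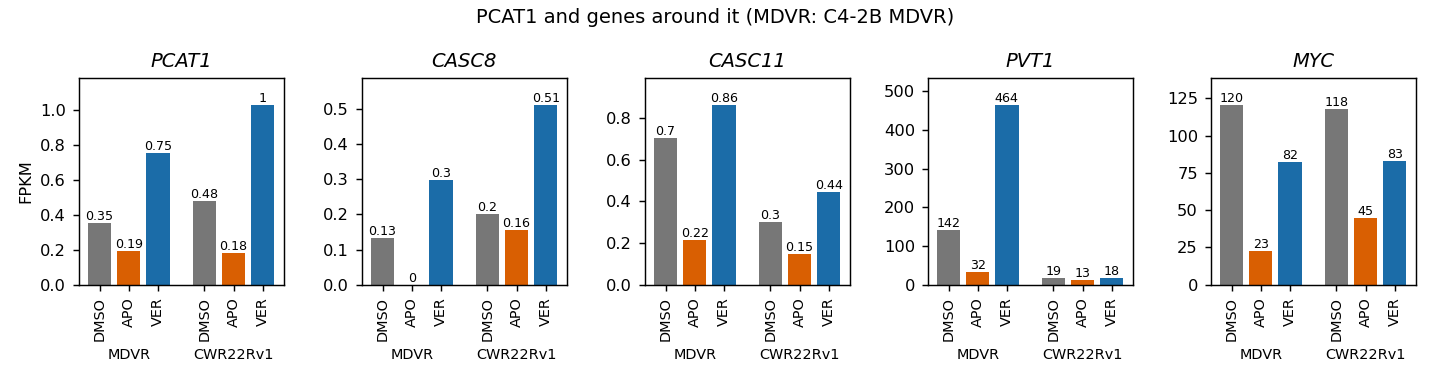
FPKM (vertical axis, from 0, with its own range in each panel) of PCAT1 and of CASC8, CASC11, PVT1 and MYC in the 6 libraries, 1 bar per library. All 5 genes are lowest with APO in both lines; PCAT1, CASC8 and CASC11 are highest with VER in both lines, PVT1 only in C4-2B MDVR, and MYC is highest with DMSO.

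In C4-2B MDVR, PCA3 was listed at 0 under DMSO and APO and at 0.0329 FPKM under VER, below the filter, so it was not compared in that line. In CWR22Rv1 it was at 0.291 FPKM with DMSO, 0.640 with APO and 0.471 with VER. Both treated libraries were above DMSO, by 0.92 with APO (2.20-fold by FPKM) and 0.55 with VER (1.62-fold). With a pseudocount of 1 the VER change was 0.19, within 1.2-fold. PRUNE2, the protein-coding gene that holds PCA3 on its opposite strand, was at 31.9, 15.5 and 28.2 FPKM in C4-2B MDVR with DMSO, APO and VER, and at 16.6, 12.3 and 15.3 FPKM in CWR22Rv1. It was lowest with APO in both lines, whereas PCA3 was highest with APO in CWR22Rv1. PRUNE2 was far above PCA3 in every library, and without a stated use of strand the reads of the pair could not be told apart. GCNT1, a glycosyltransferase gene that ends 40777 bases before PCA3, was at 21.2, 3.62 and 10.1 FPKM in C4-2B MDVR and 10.8, 3.42 and 9.60 FPKM in CWR22Rv1, again lowest with APO.

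PCGEM1 was listed at 0 in every library, in both lines and with both inhibitors, and entered no comparison. TMEFF2, the nearest protein-coding gene before it at 554136 bases and itself a prostate-expressed membrane protein, was listed at 0, 0.0193 and 0.0277 FPKM in C4-2B MDVR with DMSO, APO and VER. The CWR22Rv1 libraries held it at 83.7, 64.5 and 70.6 FPKM. A high level of the neighbour in CWR22Rv1 thus stood beside a PCGEM1 value of 0.

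The lines were compared under DMSO, in genes that exceeded 0.1 FPKM in any of the 6 libraries. Of the 5 lncRNAs that passed, 2 were called lower in C4-2B MDVR, 0 higher and 3 were within 1.2-fold, where 75.4% of all 23671 genes (35.5% higher and 39.9% lower) and 72.1% of lncRNA genes were called. PCAT1 was at 0.353 FPKM in C4-2B MDVR and 0.480 FPKM in CWR22Rv1, a difference of -0.35 on the log2(FPKM + 0.1) scale. PCA3 was listed at 0 in the former and was at 0.291 FPKM in CWR22Rv1. It passed the filter only through CWR22Rv1, so its call as lower in C4-2B MDVR is not independent of the filter. With FPKM above 0.1 required in every library, 1 of 4 lncRNAs was called, lower, beside 76.7% of all genes called (35.3% lower). DRAIC (0.21), MALAT1 (0.22) and NEAT1 (-0.20) were within 1.2-fold, though with each library scaled to the same median ratio NEAT1 was at -0.30 and with each scaled to the same sum DRAIC was at 0.27 and MALAT1 at 0.28, all past it. Line and enzalutamide in the maintenance medium cannot be told apart here.

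VER and APO were given at the same dose and time, and their libraries were compared directly after the values had been seen, 1 pair in each line. In C4-2B MDVR, 2 of the 4 lncRNAs that passed were higher with VER and 1 lower, where 61% of all genes were called (28.5% up and 32.5% down), and 75% of lncRNA genes. In CWR22Rv1, 3 of the 5 were higher and 1 lower, where 71.8% were called (37.3% up and 34.5% down), and 77.6% of lncRNA genes. With each library scaled to the same sum, the split of all genes became 37.2% up and 24.5% down in C4-2B MDVR and 30.9% up and 43.1% down in CWR22Rv1. PCAT1 differed by 1.53 in C4-2B MDVR (3.85-fold higher with VER) and 2.00 in CWR22Rv1 (5.67-fold). Among all genes compared, 3.96% and 4.17% differed more upward than PCAT1, and among lncRNA genes 8.68% and 9.499%. The PCAT1 levels are near the pseudocount. With a pseudocount of 1 its differences were 0.55 in C4-2B MDVR and 0.78 in CWR22Rv1, still past 1.2-fold. DRAIC was higher with VER by 1.27 (2.47-fold) and 0.90 (1.91-fold). MALAT1 was lower with VER by 1.86-fold in C4-2B MDVR (-0.89) and higher by 1.91-fold in CWR22Rv1 (0.93). NEAT1 differed by -0.09 and 0.07, within 1.2-fold in both lines, and PCA3 by -0.37 in CWR22Rv1. An interval of these differences could not be computed from 1 library per condition.

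A list of 36 other lncRNAs of prostate cancer and other cancers gave the surroundings of the 6. Of these, 31 were matched by symbol and 22 passed the filter in each line. In C4-2B MDVR, 9 were called up and 13 down with APO, and 9 up and 9 down with VER. In CWR22Rv1, 10 were up and 11 down with APO, and 4 up and 7 down with VER. In the same order 80%, 76.6%, 79.3% and 73.7% of lncRNA genes were called in either direction, and 73.1%, 70.5%, 74.8% and 64.4% of all genes. Of lncRNA genes in C4-2B MDVR, 43.4% were up and 36.6% down with APO, and 41.7% up and 34.9% down with VER. Those of CWR22Rv1 were 35.3% up and 44% down with APO, and 40.9% up and 32.8% down with VER. The medians were -0.48, -0.08, -0.34 and -0.05, and with a pseudocount of 1 those with APO were -0.17 and -0.08. GAS5, a small nucleolar RNA host gene that accumulates when growth stops, was higher by 0.96 and 0.66 in C4-2B MDVR with APO and VER and by 1.69 and 1.25 in CWR22Rv1. MIR22HG, the host of a microRNA, was higher by 1.67 and 1.60 in C4-2B MDVR and by 1.05 and 1.503 in CWR22Rv1. Each was called up in all 4 comparisons, as NEAT1 was.

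DLEU2 and MIR17HG, which also host microRNAs, were called down in all 4 comparisons, as DRAIC was. DLEU2 changed by -0.78 and -2.09 in C4-2B MDVR with APO and VER and by -0.72 and -0.73 in CWR22Rv1. MIR17HG changed by -1.40 and -0.68 in C4-2B MDVR and by -1.61 and -0.37 in CWR22Rv1. MIR17HG was thus lower with APO than with VER in both lines, the order of DRAIC, and DLEU2 had this order in neither.

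Genes whose pattern was most like that of DRAIC, MALAT1 or NEAT1 were looked for among the 14157 genes that averaged 1 FPKM or more, by Pearson's r of log2(FPKM + 0.1) over the 6 libraries. These libraries come from 2 lines and 1 run of each condition, and the values are descriptions. DRAIC was most like SLC25A1, the mitochondrial citrate carrier (r = 0.99), DPH1, an enzyme of diphthamide synthesis (0.98), and LIMD1, a LIM domain scaffold (0.98). Like DRAIC, SLC25A1 was lowest with APO, at 56.7 FPKM in C4-2B MDVR and 56.5 FPKM in CWR22Rv1, against 90.2 and 79.3 FPKM with DMSO. NEAT1 was most like the zinc finger gene ZNF14 (0.99), TANK, an adaptor of innate immune signalling (0.99), and the zinc finger gene ZNF836 (0.98). ZNF14 was at 2.24, 3.17 and 2.93 FPKM in C4-2B MDVR and at 2.68, 5.85 and 5.23 FPKM in CWR22Rv1. MALAT1 was most like OSGEPL1-AS1 (0.96), the pseudogene RPL23AP53 (0.95), whose reads may be shared with its parent family, and AATK, a kinase gene (0.94). An r over 0.9 was reached by 133 genes for DRAIC and 131 for NEAT1 but by 10 for MALAT1.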

How the data were processed

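RNA sequencing values of the 6 libraries (1 per condition, grouped by sample titles) were used as deposited. According to the submitters' processing notes the authors used HISAT, Cufflinks and Cuffnorm with GRCh38, and they deposited 1 FPKM per gene. Versions, annotation release and use of strand are not given in the sources used here. The labels describe a stranded kit with poly(A) selection and the study's text another kit. Cuffnorm scales libraries to each other, so a shift of total RNA per cell would not be seen, and FPKM is not a count, so no count test was run.

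Ensembl identifiers were matched to GENCODE 29 (57047 of 60658). Changes are differences of log2(FPKM + 0.1), filtered at FPKM above 0.1 in at least 1 library and called past 1.2-fold. Without replicates no test, error or interval was computed, and whole reads were not recovered. Relative depth was taken from ratios of values of 0.001 to 0.05 FPKM. Functions were tested on simulated data. Python 3.11.15, pandas 2.3.3, numpy 2.4.6 and matplotlib 3.10.9 were used.

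The members and lists were chosen with earlier results of these data known. Named from each list are up to 2 members with the strongest upward and up to 2 with the strongest downward change, ranked by their weakest value in the 4 inhibitor comparisons, among those averaging 1 FPKM or more. Neighbours were taken by position, and 1 gene covered by these rules is not reported here. The 3 genes most like a member were taken by Pearson's r. Alternatives were other pseudocounts, filters, scalings and fold thresholds. The comparisons of VER with APO and the list medians under alternatives were added after the data were seen.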

Additional observations from a re-analysis of the deposited data

Results flagged for a closer look

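MALAT1 differed in direction between the lines. With VER against DMSO it was at -0.69 in C4-2B MDVR and 1.12 in CWR22Rv1, and with VER against APO at -0.89 and 0.93. Each line has 1 library per condition, so the difference between the lines was not tested.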

How the results depend on the processing

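No paired analysis was possible because each condition has 1 library and the labels give no replicate numbers, and for the same reason no library could be left out. The changes of the lncRNAs kept their sign under every alternative that gave a value, except VER against APO for NEAT1, which lies near 0 (-0.09 to 0.09 in C4-2B MDVR and -0.11 to 0.16 in CWR22Rv1). Under other pseudocounts, filters and scalings, 263 changes stayed on their side of 1.2-fold, 4 were no longer past it (PCAT1 and PCA3 with a pseudocount of 1) and 6 became so, among them MALAT1 in CWR22Rv1 with APO (0.31 with each library scaled to the same sum). A filter does not alter the change of a gene, so the cases under other filters, which are among the 263, could not move. The medians of the lists stayed on their side of 1.2-fold in 126 cases, and 9 were no longer past it and 5 became so. At 1.5-fold and 2-fold the values are the same, and in 22 cases over both a change past 1.2-fold did not reach the stricter threshold. The number of lncRNAs past the threshold depended on the fold. In C4-2B MDVR with APO it was 1 at 2-fold, where 28.7% of all genes were called. With VER it was 2 at 1.5-fold (46.1% of all genes) and 0 at 2-fold (27.8%). In CWR22Rv1 with VER it was 3 at 1.5-fold (36.6% of all genes) and 2 at 2-fold (19.8%). For VER against APO in CWR22Rv1 it was 1 at 2-fold (26.2%). For the lines under DMSO it was 1 with a pseudocount of 1 (62.4% of all genes), at 1.5-fold (58.2%) and at 2-fold (41.1%). With FPKM above 0.1 in every library or above 1 in at least 1 library it was also 1 (76.7% and 78.8%). With the same sum it was 4 (75.5%). Scaling to the same sum moved the median change of genes with a mean over 1 FPKM from 0.02 to -0.13 in C4-2B MDVR with APO, and leaving out mitochondrial genes moved it to -0.15 in CWR22Rv1 with APO. With 1 library per condition, neither sampling error nor culture variation is known, and differences of PCAT1 and PCA3 under 1 FPKM are the least certain.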
